A study of Mus musculus with 42 samples.

Results

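Mouse embryonic fibroblasts of the totalx2 lines were reprogrammed towards induced pluripotent stem cells (iPSC), and at day 12 the mCherry+/GFP+ cells were compared with the mCherry+/GFP- cells of the same lines. The comparison holds 6 of the 42 RNA-seq libraries of the series, chosen by their source labels from the count table of the second sequencing batch, with 3 GFP+ libraries and 3 GFP- libraries paired by line. The lines are 73E6, 73E7 and 73E8, and every set of 3 values below follows that order. All 6 libraries come from male cells of genotype Tg(mCherry)/wt; Tg(GFP)/wt from a cross of the strains B6- Tet1tm1.1Koh and B6;129S4-Pou5f1tm2Jae/J, so both gates carry both reporter alleles and differ in the GFP signal. The strain names give targeted alleles of Tet1 and of Pou5f1, the gene of the pluripotency factor OCT4, and the mCherry and GFP reporters are read here as marking these 2 genes. The labels class the day 12 GFP+ cells as stage III and the day 12 GFP- cells as stage I intermediates. The title of the GFP- library of line 73E7 lacks the mCherry mark that the other GFP- titles carry, so its gate was taken from its source label. Further groups appear below as a frame for the day 12 values: day 10 GFP+ (stage II) and GFP- (stage I) and day 8 GFP- (stage I) cells of the same 3 totalx2 lines. Also used were wild-type iPSC clones of genotype wt/wt;GFP/wt at passage 6-7, and day 12 GFP+ (stage IV) and GFP- (stage III) cells of 3 naivex2 lines. The naivex2 lines are male, of genotype Tg(mCherry)/wt; Tg(GFP)/wt, with the transgenes Tg(Tet1-mCherry)B37Koh and Tg(Pou5f1-EGFP)2Mnn, and were sequenced in the first batch. Each group has 3 libraries. The labels call the 3 lines independent, and they do not name the reprogramming factors used on them.

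Reprogramming turns a fibroblast into a cell that self-renews and can form every embryonic lineage. In the usual account the fibroblast programme of collagens, mesenchymal transcription factors and contractile proteins is shut down, cells gain epithelial junctions and divide fast, and the endogenous pluripotency network is switched on late. That network is built around OCT4, NANOG, ESRRB and their partners, and its late members mark the naive state, the ground state of mouse embryonic stem (ES) cells. Activation of Pou5f1 from its own locus is widely used to mark the cells that are close to a stable pluripotent state.

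Poly(A) RNA of sorted cells was sequenced with a stranded kit and counted over whole gene bodies, introns included. The 6 libraries held 7018296 to 20225778 counts, detected 19078 to 20897 gene names and had 2.395% to 2.815% of counts on mitochondrial genes. Levels are given as CPM (counts scaled to a fixed library total) after scaling by TMM factors (0.987 to 1.03 in these 6 libraries), with no correction for gene length, so they compare a gene between samples and not genes with one another. Each fold change is the log2 of GFP+ over GFP- from edgeR's quasi-likelihood fit with a term for the line. Each adjusted p is from the F test of that fit after Benjamini-Hochberg adjustment over all genes tested. Unless marked SD, the value after ± is an approximate standard error. It was worked out as the size of the log2 fold change over the square root of the F statistic. Replicates within a group differed by more than counting noise.

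Day 12 GFP+ cells differed from their GFP- partners across most of the transcriptome. Of 14514 genes tested, 10498 passed an adjusted p of 0.05 (72.3%), with 5258 higher (36.2%) and 5240 lower (36.1%) in GFP+ cells, so a count of called members must be read against those shares. The gates did not overlap for 10766 tested genes (74.2%). Size separates the ends: 223 called genes had a log2 fold change over 4 and 14 under -4, while 1479 were over 1 and 2790 under -1. The upper end of the range therefore reached further from 0 than the lower end, while moderate differences were more often negative. In bulk samples such as these, fewer cells of a type and less RNA per cell cannot be told apart.

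**Figure D1:**
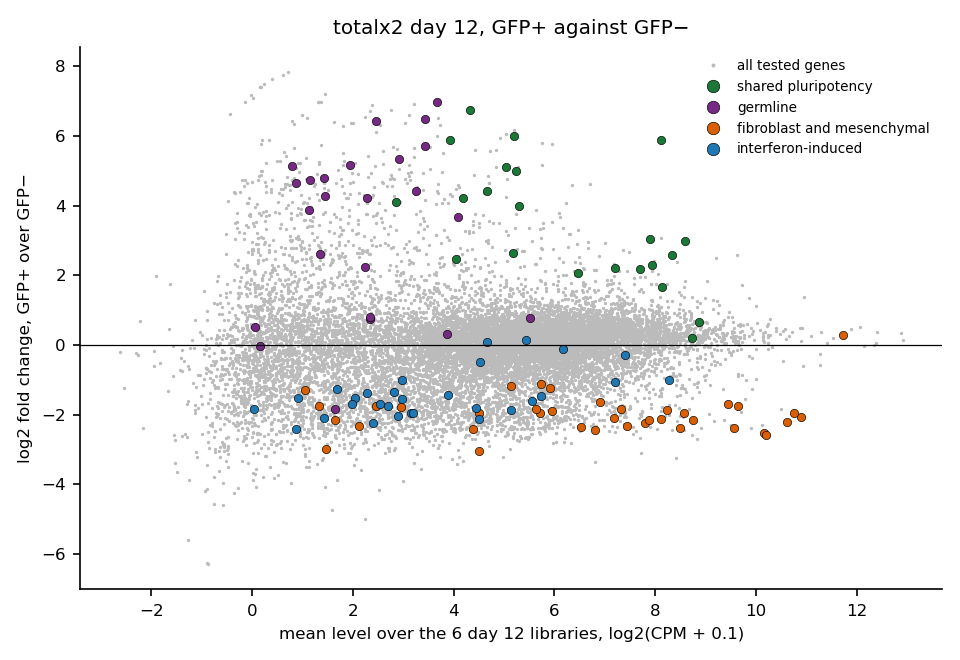
Each point is 1 of the 14514 tested genes, with its mean level over the 6 day 12 libraries as log2(CPM + 0.1) on the x axis and its log2 fold change, GFP+ over GFP-, on the y axis; coloured points are members of 4 gene lists. Pluripotency and germline members lie mostly above 0, fibroblast and interferon-induced members mostly below, and the median over all genes is 0.01.

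The 2 genes of the reporters were read first. Pou5f1 had 548, 571 and 584 CPM in GFP+ cells, against 372, 367 and 351 CPM in GFP- cells (log2 fold change 0.65 ± 0.08, adjusted p = 3.69e-06). Tet1, which encodes a 5-methylcytosine oxidase, had 530, 536 and 508 CPM in GFP+ cells, against 199, 187 and 163 CPM in GFP- cells (log2 fold change 1.53 ± 0.11, adjusted p = 5.95e-08), although mCherry was required in both gates. The groups did not overlap for either gene. A gene used for sorting is no finding between the sorted cells, and counts per gene name do not separate transcripts of the endogenous Pou5f1, Klf4 and Myc loci from any delivered factor. Pou5f1 RNA was present in every GFP- library, at 351 CPM or more. Klf4, a reprogramming factor and naive-state regulator, had 569.6, 528 and 588 CPM in GFP+ cells, against 556, 507 and 546 CPM in GFP- cells with no call (adjusted p = 0.319). Myc was lower, with 319, 358 and 374 CPM in GFP+ cells, against 582, 552 and 566 CPM in GFP- cells (log2 fold change -0.69 ± 0.07, adjusted p = 2.64e-07). Wild-type iPSC clones averaged 40.8 ± 2.62 CPM of Myc (SD, n = 3), given with no test.

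The pluripotency network was higher throughout in GFP+ cells. All 22 members of a list of genes shared by pluripotent states rose, with a median log2 fold change of 3.01 beside 0.01 over all tested genes. Summed over that list the GFP+ libraries held 5203 to 5468 CPM and the GFP- libraries 1283 to 1510 CPM. One of the 22 is Pou5f1, the gene behind the sorting signal. The size of the difference ran from 0.20 for L1td1, which encodes an RNA-binding protein, to 6.73 for Foxd3.

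Core factors with detectable RNA in GFP- cells differed by a few fold. Nanog, a homeobox factor of the core network, had 580, 537 and 548 CPM in GFP+ cells, against 113, 93.2 and 73.5 CPM in GFP- cells (log2 fold change 2.58 ± 0.17, adjusted p = 3.24e-07). Esrrb, an orphan nuclear receptor of the naive network, had 651, 697 and 707 CPM in GFP+ cells, against 100.3, 89.5 and 71.2 CPM in GFP- cells (log2 fold change 2.98 ± 0.25, adjusted p = 5.54e-06). Sall4, a zinc-finger partner of OCT4, had 419.9, 390.5 and 410 CPM in GFP+ cells, against 94.2, 73.8 and 79.1 CPM in GFP- cells (log2 fold change 2.31). In each of these genes the lowest GFP+ library exceeded the highest GFP- library several times over. Fgf4, the growth factor that ES cells secrete, and Tdgf1, the NODAL co-receptor CRIPTO, had log2 fold changes of 2.19 and 3.03.

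Another set was close to silent without GFP. Dppa5a, an RNA-binding protein gene of pluripotent cells, had 531, 533 and 578 CPM in GFP+ cells, against 9.41, 10.6 and 7.44 CPM in GFP- cells (log2 fold change 5.89 ± 0.17, adjusted p = 7.73e-11). Dppa4, a chromatin-associated protein gene, had 71.7, 67.9 and 78 CPM in GFP+ cells, against 2.23, 2.41 and 2.15 CPM in GFP- cells (log2 fold change 4.99 ± 0.16, adjusted p = 1.54e-13). Zfp42, which encodes the ES-cell marker REX1, had 64.4, 60.6 and 67.5 CPM in GFP+ cells, against 2.57, 1.45 and 1.08 CPM in GFP- cells (log2 fold change 5.10 ± 0.21, adjusted p = 5.7e-12). Each GFP+ library held many times the level of its GFP- partner for these 3 genes. Foxd3, a forkhead repressor needed to maintain pluripotent cells, had 40.9, 39.5 and 38.8 CPM in GFP+ cells, against 0.437, 0.241 and 0.323 CPM in GFP- cells (log2 fold change 6.73 ± 0.21, adjusted p = 1.79e-13). Tcl1, a co-activator of AKT, had 58.4, 73.4 and 83.9 CPM in GFP+ cells, against 1.12, 1.08 and 0.97 CPM in GFP- cells (log2 fold change 6.00 ± 0.20, adjusted p = 2.24e-13). The lines differed little from one another for Foxd3, and Tcl1 was highest in 73E8 among GFP+ and lowest there among GFP- cells. Wild-type iPSC clones 1, 2 and 3 are given as a frame with no test, in that order. Clone 1 stands apart, with 12.18% of its counts on mitochondrial genes and a scaling factor of 0.738, against 2.822% and 2.873% and factors of 0.940 and 0.934 in clones 2 and 3. The clones had 198, 599.9 and 555 CPM of Dppa5a, 226, 132 and 117 CPM of Dppa4 and 68.7, 82.4 and 87.1 CPM of Zfp42. Clone 1 was far lower than the other clones for Dppa5a and higher for Dppa4. Lin28a, which encodes a let-7 inhibitor, averaged 73.5 ± 11 CPM in GFP+ cells and 4.73 ± 0.696 CPM in GFP- cells (SD, n = 3 each), and the iPSC clones had 288, 364 and 358 CPM.

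**Figure D2:**
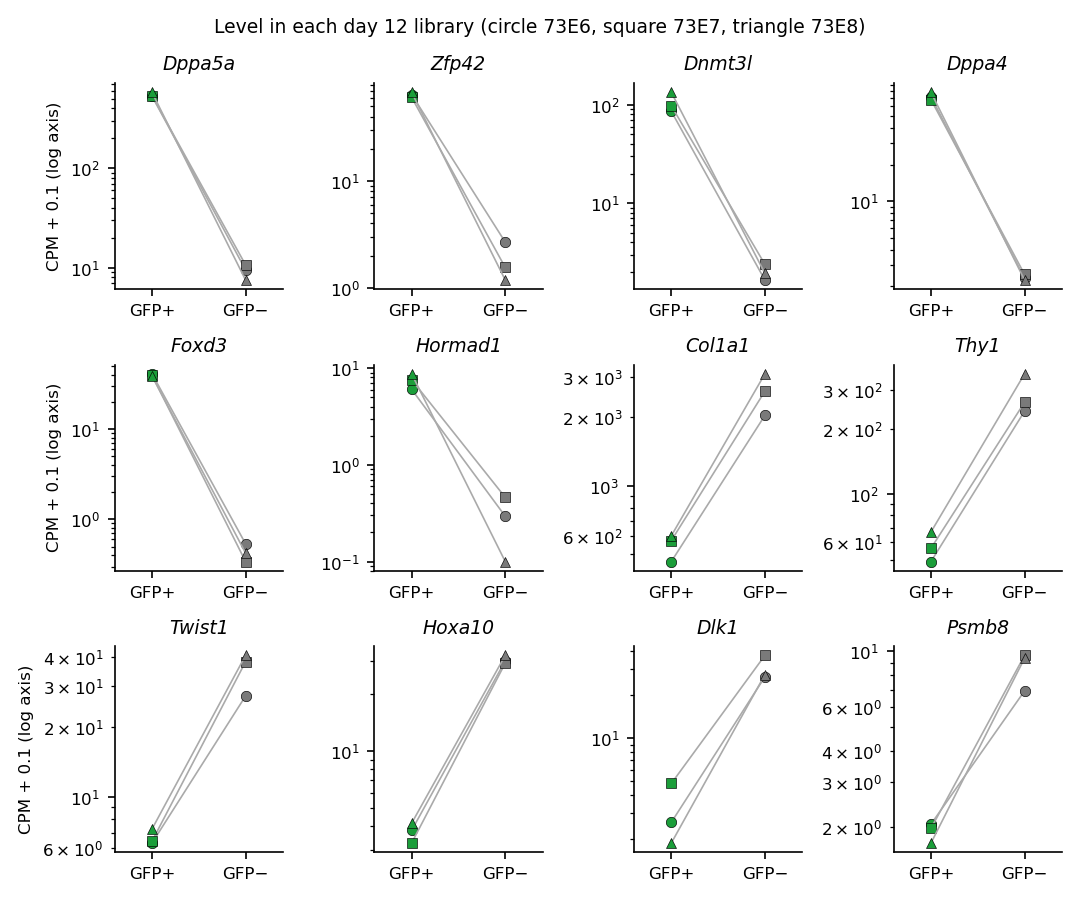
Levels of 12 genes in each day 12 library, as CPM + 0.1 on a log axis, with GFP+ left of GFP- and lines joining libraries of the same line (circle 73E6, square 73E7, triangle 73E8). Dppa5a, Zfp42, Dnmt3l, Dppa4, Foxd3 and Hormad1 are higher in all 3 GFP+ libraries, and Col1a1, Thy1, Twist1, Hoxa10, Dlk1 and Psmb8 are lower in all 3.

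Genes of the naive state followed, with 21 of 24 higher, 2 lower and a median of 2.54. Tbx3, a T-box repressor, had 138, 145 and 188 CPM in GFP+ cells, against 6.5, 6.86 and 5.39 CPM in GFP- cells (log2 fold change 4.59 ± 0.17, adjusted p = 3.69e-11). Tfcp2l1, a grainyhead-family factor downstream of LIF, had 566, 608 and 560.1 CPM in GFP+ cells, against 129.7, 104 and 98.1 CPM in GFP- cells (log2 fold change 2.38 ± 0.10, adjusted p = 1.95e-11). Klf5 had 68.5, 79.3 and 96.9 CPM in GFP+ cells, against 7.81, 8.55 and 7.44 CPM in GFP- cells (log2 fold change 3.34 ± 0.14, adjusted p = 3.12e-12). None of these 3 genes had overlapping gates. Pecam1, an adhesion molecule of ES cells as well as of endothelium, had 59.4, 60.5 and 66.6 CPM in GFP+ cells, against 3.15, 3.13 and 3.66 CPM in GFP- cells (log2 fold change 4.24). The 2 members of the list that fell belong to LIF signalling, the pathway that holds mouse ES cells in the naive state. These were Stat3, the transducer of LIF signals, with 120.1, 133 and 132 CPM in GFP+ cells, against 232, 231 and 254 CPM in GFP- cells (log2 fold change -0.90 ± 0.07, adjusted p = 9.27e-09), and its feedback inhibitor Socs3, with 123, 115 and 126 CPM in GFP+ cells, against 182, 154 and 152 CPM in GFP- cells (log2 fold change -0.42). Dppa3, which encodes the maternal factor STELLA, had 61.2, 43.8 and 43.2 CPM in GFP+ cells, against 1.84, 1.69 and 1.62 CPM in GFP- cells (log2 fold change 4.85 ± 0.24, adjusted p = 1.35e-10). The iPSC clones had 8.63, 6.83 and 4.84 CPM of this gene, each between the gates.

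Genes of the formative and primed states, which lie between naive cells and gastrulation, were mixed: of 15 tested members 8 were higher and 4 lower, with a median of 0.62. Otx2, a homeobox factor that drives the exit from the naive state, had 17.7, 13.7 and 19.9 CPM in GFP+ cells, against 0.437, 0.723 and 0.539 CPM in GFP- cells (log2 fold change 4.97 ± 0.31, adjusted p = 1.65e-09). Lefty2, a NODAL antagonist and target, had 27.3, 42.4 and 36.5 CPM in GFP+ cells, against 3.01, 5.54 and 3.02 CPM in GFP- cells (log2 fold change 3.22). Sall2 had 7.87, 8.47 and 9.65 CPM in GFP+ cells, against 27.5, 30.7 and 29.5 CPM in GFP- cells (log2 fold change -1.74) and Etv4 was lower as well (log2 fold change -1.37). Fgf5, a marker of the primed state, had 30 counts over the 6 libraries and was not tested.

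The miR-290 cluster is the main source of ES-cell microRNAs, whose shared seed targets inhibitors of the cell cycle. Its hairpins lie on chromosome 7 of mm10, and their gene spans in the count table record reads of the polyadenylated primary transcript, not mature microRNA; these spans were chosen after their values were seen. Mir295 had 5.93, 5.89 and 6.18 CPM in GFP+ cells, against 2.09, 1.45 and 1.4 CPM in GFP- cells (log2 fold change 1.85 ± 0.25, adjusted p = 5.09e-06). Mir294 had 5.28, 6.18 and 4.2 CPM in GFP+ cells, against 1.6, 0.843 and 1.19 CPM in GFP- cells (log2 fold change 2.0 ± 0.29, adjusted p = 8.15e-06), and the spans of Mir290a, Mir291a, Mir292, Mir291b and Mir293 were higher as well, with log2 fold changes of 1.25 to 2.03. For all 7 spans the lowest GFP+ library exceeded the highest GFP- library. These spans lie close together on the same strand, and gates were separate for 74.2% of all tested genes. Wild-type iPSC means, given with no test, were under the GFP+ means for all 7. They were below the GFP- means for Mir290a, Mir291a, Mir292 and Mir294, and above them for Mir291b, Mir293 and Mir295. No span was called in naivex2 at day 12 (log2 fold changes of -0.87 to -0.45). The mature 3p sequences, from RefSeq on GRCm38.p6, are shown because their seeds define the family; capitals mark the seed, bases 2 to 8, which is AAGUGCU in 291a, 294 and 295, AAGUGCC in 290a, AAGUGCA in 291b and GUGCCGC in 293. The first lies at chr7:3218674-3218697 and the last at chr7:3220815-3220837, both on the plus strand.
miR-290a-3p: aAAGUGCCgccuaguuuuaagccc
miR-291a-3p: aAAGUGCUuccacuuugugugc
miR-291b-3p: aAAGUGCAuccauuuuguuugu
miR-293-3p: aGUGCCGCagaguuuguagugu
miR-294-3p: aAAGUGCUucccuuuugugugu
miR-295-3p: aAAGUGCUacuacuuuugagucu

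Regulators of DNA methylation moved in both directions, with 11 of 20 tested members higher, Tet1 among them, and 8 lower (median 0.49). Dnmt3l, the catalytically inactive partner of the de novo methyltransferases, had 85.8, 97.5 and 134 CPM in GFP+ cells, against 1.55, 2.29 and 1.83 CPM in GFP- cells (log2 fold change 5.79 ± 0.15, adjusted p = 2.88e-14). The 2 active de novo enzymes went apart: Dnmt3b had 182, 203 and 223 CPM in GFP+ cells, against 32.4, 39.5 and 32.2 CPM in GFP- cells (log2 fold change 2.55 ± 0.17, adjusted p = 3.11e-07), whereas Dnmt3a had 57.1, 72.4 and 69.1 CPM in GFP+ cells, against 150.1, 153 and 165 CPM in GFP- cells (log2 fold change -1.24 ± 0.09, adjusted p = 1.25e-09). Both moved by more than the spread between lines, in opposite directions. Among the oxidases, Tet2 had 328, 322 and 341 CPM in GFP+ cells, against 87.5, 92.7 and 76.8 CPM in GFP- cells (log2 fold change 1.95 ± 0.10, adjusted p = 2.45e-10). Tet3 had 23.8, 27.1 and 24.4 CPM in GFP+ cells, against 82.8, 93.3 and 101 CPM in GFP- cells (log2 fold change -1.88 ± 0.08, adjusted p = 6.6e-12). The gates did not overlap for any of these 5 genes. Zfp57 and Trim28, whose products protect methylated imprints, were higher, with log2 fold changes of 2.36 and 1.34.

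Genes of the germline are in many cases methylated and silent in somatic cells. Of 24 tested members 20 were higher and 1 lower (median 4.25), and 8 further members had too few counts to be tested. Several members, Sycp1 and Hormad1 among them, were under 1 CPM in every GFP- library, and a gene that low passes the count filter only through the groups where it is higher, so the count and median describe the members that passed and not the list. Dazl, an RNA-binding protein gene of germ cells, had 13.5, 15.1 and 14.9 CPM in GFP+ cells, against 0.291, 0.361 and 0.431 CPM in GFP- cells (log2 fold change 5.33 ± 0.29, adjusted p = 2.83e-09). Hormad2, a meiotic chromosome axis gene, had 19.4, 17.1 and 17.6 CPM in GFP+ cells, against 1.12, 0.843 and 0.431 CPM in GFP- cells (log2 fold change 4.42 ± 0.21, adjusted p = 1.96e-11). Tex19.1, which acts against retrotransposons in germ cells, had 25.2, 30.2 and 38.2 CPM in GFP+ cells, against 2.38, 2.41 and 2.59 CPM in GFP- cells (log2 fold change 3.67 ± 0.23, adjusted p = 7.18e-10). Every GFP+ library was above every GFP- library in these genes, and the iPSC clones had 119, 45.5 and 96.7 CPM of Dazl, 58.3, 35.5 and 37.2 CPM of Hormad2 and 64.4, 113 and 105 CPM of Tex19.1. Brdt, a testis bromodomain gene, was the member that fell, with 1.02, 1.44 and 1.62 CPM in GFP+ cells, against 4.85, 3.73 and 5.39 CPM in GFP- cells (log2 fold change -1.84). Ddx4, the germ-cell helicase VASA, averaged 4.23 ± 1.25 CPM in GFP+ cells and 0.65 ± 0.419 CPM in GFP- cells (SD, n = 3 each), and the iPSC clones had 49.3, 32.1 and 37.5 CPM.

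The promoters of this list were searched for CACGTG, the E-box bound by dimers that contain MAX; in ES cells the MGA and MAX proteins are known to silence germline genes. The motif reads the same on both strands. Of 28 members with a promoter in the RefSeq table (250 bases before to 50 after the start, GRCm38.p6), 13 held it (46.4%), against 7.24% of 27025 promoters in all, 10.1% of those of tested genes, 12.4% of the promoters of genes called higher and 8.35% of those of genes called lower. A match is a description of letters and not of binding. Mga itself had 466, 432 and 440.3 CPM in GFP+ cells, against 266, 237 and 235 CPM in GFP- cells (log2 fold change 0.86). E2f6, another repressor of germline genes, had 27.5, 23.7 and 26.2 CPM in GFP+ cells, against 40.4, 40.8 and 39.3 CPM in GFP- cells (log2 fold change -0.63). Both genes had reads in every library of both gates. Hormad1 had 5.93, 7.47 and 8.62 CPM in GFP+ cells, against 0.194, 0.361 and 0 CPM in GFP- cells (log2 fold change 5.18 ± 0.43, adjusted p = 1.29e-08). Sycp1 had 3.24, 2.73 and 3.53 CPM in GFP+ cells, against 0.0485, 0 and 0.215 CPM in GFP- cells (log2 fold change 5.13 ± 0.53, adjusted p = 2.04e-07). Fkbp6 had 5.19, 4.6 and 5.3 CPM in GFP+ cells, against 0.243, 0 and 0.215 CPM in GFP- cells (log2 fold change 4.78 ± 0.43, adjusted p = 3.15e-08). All 3 act in meiotic chromosome pairing. Of the 13 holders of the motif 8 were higher, Brdt was lower (-1.84), Tdrd1 had no call (-0.02, adjusted p = 0.973) and 3 were not tested, so holders were found among members with each outcome. The promoters of Hormad1, Sycp1 and Fkbp6 are shown as examples of holders that rose; capitals mark CACGTG and the sequences read in the direction of the gene.
Hormad1, chr3:95559427-95559726, plus strand: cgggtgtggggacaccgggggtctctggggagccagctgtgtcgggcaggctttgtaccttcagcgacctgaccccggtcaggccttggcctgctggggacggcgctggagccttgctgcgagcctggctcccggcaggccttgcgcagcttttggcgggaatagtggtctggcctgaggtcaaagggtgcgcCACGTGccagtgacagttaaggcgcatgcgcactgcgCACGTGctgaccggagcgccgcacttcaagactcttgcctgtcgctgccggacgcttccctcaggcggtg
Sycp1, chr3:102936051-102936350, minus strand: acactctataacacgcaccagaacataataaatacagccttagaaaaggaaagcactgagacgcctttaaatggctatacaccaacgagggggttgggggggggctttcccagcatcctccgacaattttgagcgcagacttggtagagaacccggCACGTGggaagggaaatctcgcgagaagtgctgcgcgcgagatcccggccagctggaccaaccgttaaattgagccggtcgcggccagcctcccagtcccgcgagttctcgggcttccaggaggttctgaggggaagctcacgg
Fkbp6, chr5:135349995-135350294, minus strand: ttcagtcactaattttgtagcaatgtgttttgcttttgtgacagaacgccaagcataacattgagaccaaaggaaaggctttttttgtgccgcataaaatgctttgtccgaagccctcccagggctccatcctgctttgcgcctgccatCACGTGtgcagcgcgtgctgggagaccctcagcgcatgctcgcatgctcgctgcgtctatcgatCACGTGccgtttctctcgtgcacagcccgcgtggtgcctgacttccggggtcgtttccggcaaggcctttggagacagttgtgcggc

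The 12 largest rises among genes with at least 10 CPM in GFP+ cells, predicted names left out, were Rpl10l, Usp9y, Triml1, Foxd3, Zfp534, Cyct, Tuba3a, Sohlh2, Zfy1, Naa11, Zfp936 and Tcl1. Several are best known from testis: Rpl10l, a retrogene of a ribosomal protein, had 24, 22.4 and 29 CPM in GFP+ cells, against 0.243, 0.12 and 0.108 CPM in GFP- cells (log2 fold change 6.97 ± 0.39, adjusted p = 8.97e-09). Cyct, the testis cytochrome c, had 24.2, 22.8 and 29.2 CPM in GFP+ cells, against 0.291, 0.361 and 0.108 CPM in GFP- cells (log2 fold change 6.5 ± 0.31, adjusted p = 1.73e-11). The GFP- libraries held 7 counts of Rpl10l and 10 of Cyct in all. Tuba3a, a testis alpha-tubulin, had 15.5, 18.7 and 29.6 CPM in GFP+ cells, against 0.243, 0.12 and 0.215 CPM in GFP- cells, and Sohlh2, a germ-cell transcription factor, had 7.78, 12.3 and 12.1 CPM in GFP+ cells, against 0.146, 0 and 0.108 CPM in GFP- cells. Separate gates were a condition of the naming rule for these 12 genes, so their separation is no result. Every GFP- library was under 1 CPM in 11 of them, the exception being Tcl1. A gene that low passes the count filter only through the groups where it is higher. Zfp534, a zinc-finger gene, had 15, 19 and 17.1 CPM in GFP+ cells, against 0.194, 0.12 and 0.108 CPM in GFP- cells. Zfp936, another zinc-finger gene, had 24.1, 25.7 and 28.9 CPM in GFP+ cells, against 0.485, 0.241 and 0 CPM in GFP- cells. Triml1, a tripartite-motif-like gene, had 11.7, 13.2 and 14.9 CPM in GFP+ cells, against 0.097, 0.12 and 0.108 CPM in GFP- cells, and the iPSC clones had 48.7, 32.2 and 32.1 CPM. Their levels in GFP+ cells were of the same order in the 3 lines. Lncenc1, a long noncoding RNA of ES cells chosen after its values were seen, had 121, 111 and 132 CPM in GFP+ cells, against 2.28, 1.93 and 2.48 CPM in GFP- cells (log2 fold change 5.76 ± 0.12, adjusted p = 1.35e-15).

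Y-linked genes did not move as a block. Usp9y, a deubiquitinase gene, had 11.1, 10.1 and 9.2 CPM in GFP+ cells, against 0.097, 0 and 0.108 CPM in GFP- cells, which is 315 counts against 3 and a ratio of 128 with an exact 95% interval of 43.4 to 624 that covers counting error only. Zfy1, a zinc-finger gene, had 15.3, 16.5 and 16.3 CPM in GFP+ cells, against 0.243, 0 and 0.215 CPM in GFP- cells (log2 fold change 6.37 ± 0.37, adjusted p = 1.59e-10). Uba1y, a ubiquitin-activating enzyme gene, had 6.39, 7.76 and 9.65 CPM in GFP+ cells, against 0.388, 0.602 and 0.431 CPM in GFP- cells (log2 fold change 4.03 ± 0.33, adjusted p = 3.98e-08). All 3 were nearly absent from GFP- cells. Kdm5d, a histone demethylase gene on the same chromosome, had 58.8, 49 and 51.8 CPM in GFP+ cells, against 59, 54.4 and 54.9 CPM in GFP- cells with no call (adjusted p = 0.339). Ddx3y, an RNA helicase gene, had 104, 95.8 and 86.7 CPM in GFP+ cells, against 106, 100.4 and 94.5 CPM in GFP- cells (adjusted p = 0.454). Uty, another demethylase-family gene, had 52.7, 49.7 and 37.6 CPM in GFP+ cells, against 47.9, 36.2 and 38.1 CPM in GFP- cells (adjusted p = 0.124). Eif2s3y, a translation initiation factor gene, was higher by a smaller amount (log2 fold change 0.61). All 6 libraries therefore held Y-linked RNA, and the rise was seen in Usp9y, Zfy1 and Uba1y beside levels of Kdm5d, Ddx3y and Uty that overlapped between the gates. Uba1y, Kdm5d, Ddx3y, Uty and Eif2s3y were chosen after their values were seen.

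The fibroblast programme was lower in GFP+ cells almost without exception. Of 38 list members, all tested, 37 fell and 1 rose, with a median of -2.02. Summed, the list held 8389 to 8791 CPM in GFP+ libraries and 21650 to 27840 CPM in GFP- libraries. Among the fibrillar collagens Col1a1 had 465, 575 and 604 CPM in GFP+ cells, against 2035, 2597 and 3095 CPM in GFP- cells (log2 fold change -2.22 ± 0.27, adjusted p = 8.18e-05). Col3a1 averaged 696 ± 68.6 CPM in GFP+ cells and 2741 ± 385 CPM in GFP- cells (SD, n = 3 each; log2 fold change -1.97 ± 0.32, adjusted p = 0.000547). Vim, the mesenchymal intermediate filament vimentin, had 332, 350.2 and 319 CPM in GFP+ cells, against 1958, 1975 and 2114 CPM in GFP- cells (log2 fold change -2.59 ± 0.22, adjusted p = 4.92e-06). The 3 lines kept the same direction for all 3 genes. Thy1, a fibroblast surface marker that is lost early in reprogramming, had 48.9, 56.3 and 66.9 CPM in GFP+ cells, against 240.4, 264 and 357 CPM in GFP- cells (log2 fold change -2.32 ± 0.23, adjusted p = 1.4e-05). Mesenchymal transcription factors fell with them. Twist1 had 6.21, 6.32 and 7.14 CPM in GFP+ cells, against 27, 37.9 and 40.4 CPM in GFP- cells (log2 fold change -2.40 ± 0.23, adjusted p = 1.14e-06). Prrx1 had 29.4, 38.5 and 35.5 CPM in GFP+ cells, against 146, 194 and 227 CPM in GFP- cells (log2 fold change -2.45 ± 0.22, adjusted p = 4.57e-06). Meox2 had 3.71, 5.75 and 5.3 CPM in GFP+ cells, against 33, 43 and 45.1 CPM in GFP- cells (log2 fold change -3.05 ± 0.16, adjusted p = 4.9e-11). The highest GFP+ library lay below the lowest GFP- library in all of these genes. Col1a1 RNA remained at 465 CPM or more in every GFP+ library. Fn1, fibronectin, was the exception, with 3866, 3547 and 3745 CPM in GFP+ cells, against 3096, 2930 and 3159 CPM in GFP- cells (log2 fold change 0.28 ± 0.10, adjusted p = 0.0169); its adjusted p was 0.0661 with no filter on low counts, 0.0805 without the GFP+ library of 73E6 and 0.104 without the GFP- library of 73E7.

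Contractile and matrix-signalling genes ran the same way. Of 12 tested muscle genes 8 were lower and 3 higher (median -1.53). Acta2, smooth muscle actin and a marker of activated fibroblasts, had 70, 51.3 and 62.7 CPM in GFP+ cells, against 340.3, 262 and 339.6 CPM in GFP- cells (log2 fold change -2.35 ± 0.35, adjusted p = 0.000285). Tpm1, a tropomyosin, had 199.5, 172 and 173 CPM in GFP+ cells, against 559, 484 and 469 CPM in GFP- cells (log2 fold change -1.48 ± 0.11, adjusted p = 8.73e-08). The 3 that rose were Ttn (4.63, 9.48 and 8.54 CPM in GFP+ and 0.291, 0.241 and 0.215 CPM in GFP- cells), Myl4 and Des, which belong to striated muscle. Tnnt1, another striated-muscle gene, fell (log2 fold change -1.14), and the GFP- libraries held 10 counts of Ttn in all. Among TGF-beta and activin response genes 19 of 23 were lower and 1 higher (median -1.36). Tgfb3, a ligand, had 7.97, 9.62 and 12.3 CPM in GFP+ cells, against 44.2, 49.9 and 77.9 CPM in GFP- cells (log2 fold change -2.56 ± 0.26, adjusted p = 6.05e-06). Smad3, the signal transducer, had 31.5, 28 and 31.8 CPM in GFP+ cells, against 75.8, 74.2 and 85.3 CPM in GFP- cells (log2 fold change -1.36 ± 0.08, adjusted p = 9.65e-11). Id3, a BMP target, had 26.3, 38.4 and 39.5 CPM in GFP+ cells, against 92.3, 132 and 147 CPM in GFP- cells (log2 fold change -1.83 ± 0.09, adjusted p = 2.09e-11). These 3 genes were lower in every GFP+ library than in any GFP- library. Smad7, which inhibits the pathway, was the member that rose, with 68.2, 88.3 and 93.6 CPM in GFP+ cells, against 20.9, 22.4 and 25.1 CPM in GFP- cells (log2 fold change 1.85 ± 0.09, adjusted p = 2.43e-11). Smad6, the related inhibitor of BMP signals, fell (log2 fold change -0.83).

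Hox genes, which record the position along the body axis that a fibroblast came from, were lower in every tested case: 21 of 21 (median -2.24), with 10 further members not tested. A member that is low in GFP+ cells can pass the count filter through the groups where it is higher. The count and median therefore describe the members that passed and not the list. Hoxa10 had 3.71, 3.16 and 4.05 CPM in GFP+ cells, against 29.8, 29 and 31.9 CPM in GFP- cells (log2 fold change -3.02 ± 0.16, adjusted p = 4.29e-11). Hoxa9 had 3.71, 2.3 and 2.65 CPM in GFP+ cells, against 23.5, 16.7 and 18.4 CPM in GFP- cells (log2 fold change -2.75 ± 0.12, adjusted p = 8.08e-12). The 5' gene Hoxd13 had 2.41, 4.6 and 4.2 CPM in GFP+ cells, against 12.2, 21.3 and 36.4 CPM in GFP- cells (log2 fold change -2.63), with the widest spread between GFP- lines of these 3. Summed, the list held 27.6 to 29.2 CPM in GFP+ and 155.6 to 168 CPM in GFP- libraries.

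**Figure D3:**
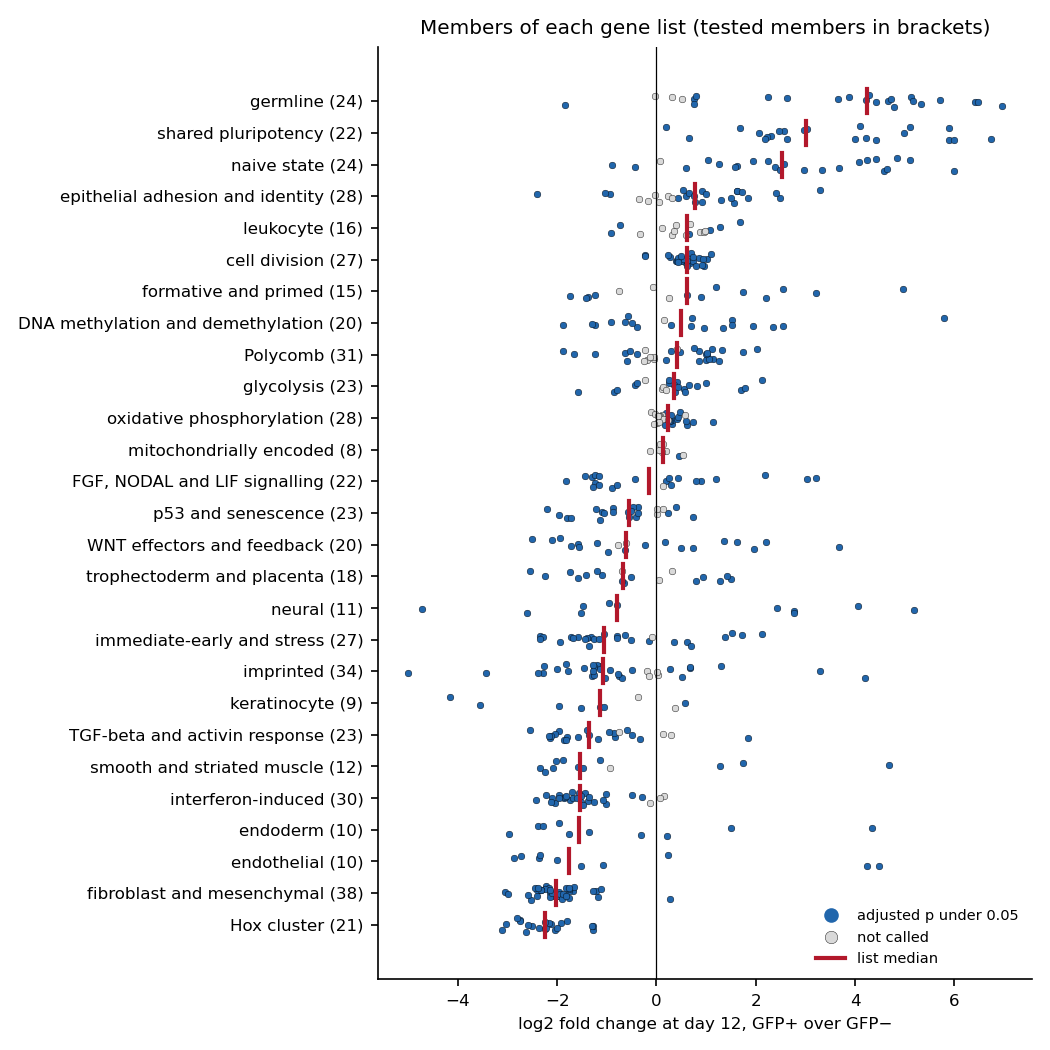
Each point is a tested member of a gene list at its log2 fold change (GFP+ over GFP-), blue where the adjusted p is under 0.05 and grey otherwise, with a red bar at the list median; the number of tested members is given beside each list with at least 8. The medians run from -2.24 for the Hox cluster to 4.25 for the germline list, and the median over all tested genes is 0.01. Each list median covers only the members that passed the count filter.

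Among the 12 largest falls with at least 10 CPM in GFP- cells were genes of epithelia as well as of mesenchyme: Dmkn, Lgals7, Dlk1, Unc5d, Ano1, Ntrk2, Ptpre, Fbn2, Fmo1, Slc7a11, St3gal6 and Atp12a. Dmkn, dermokine of the skin, had 0.834, 0.144 and 0.663 CPM in GFP+ cells, against 11.7, 9.75 and 10.8 CPM in GFP- cells (log2 fold change -4.16 ± 0.35, adjusted p = 1.35e-08). Ano1, a calcium-activated chloride channel, had 15.9, 20.2 and 24 CPM in GFP+ cells, against 176, 184 and 253 CPM in GFP- cells (log2 fold change -3.35 ± 0.11, adjusted p = 1.11e-12). Dmkn was nearly gone in GFP+ cells, while Ano1 stayed well detected. Fbn2, the microfibril protein fibrillin-2, had 63.5, 76 and 56.9 CPM in GFP+ cells, against 579, 654 and 619.7 CPM in GFP- cells (log2 fold change -3.25 ± 0.17, adjusted p = 7.34e-08). Slc7a11, the cystine transporter, had 2.96, 2.73 and 3.98 CPM in GFP+ cells, against 24.1, 20.2 and 48 CPM in GFP- cells (log2 fold change -3.22 ± 0.18, adjusted p = 9.56e-11). For both genes the GFP+ libraries stayed well under the lowest GFP- library. Ntrk2, the BDNF receptor, had 2.5, 3.45 and 3.98 CPM in GFP+ cells, against 19, 28.8 and 51.5 CPM in GFP- cells (log2 fold change -3.33), with the highest GFP- value in line 73E8. Separate gates were a condition of the naming rule for these 12 genes, so their separation is no result. Keratinocyte genes were few: of 20 members 9 were tested, 6 lower and 1 higher, and the defining keratins Krt5 and Krt14 had 6 and 7 counts over all 6 libraries.

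Interferon-induced genes were lower in GFP+ cells. Of 30 members, all tested, 27 fell and none rose (median -1.54), and the summed level was 722.5 to 759.5 CPM in GFP+ and 1321 to 1490 CPM in GFP- libraries. Psmb8, an immunoproteasome subunit, had 1.95, 1.87 and 1.62 CPM in GFP+ cells, against 6.84, 9.51 and 9.27 CPM in GFP- cells (log2 fold change -2.23 ± 0.27, adjusted p = 1.19e-06). Tap1, the peptide transporter that loads MHC class I, had 7.78, 9.05 and 8.39 CPM in GFP+ cells, against 31.2, 35.9 and 42.5 CPM in GFP- cells (log2 fold change -2.12 ± 0.15, adjusted p = 3.83e-09). Both serve the presentation of peptides on MHC class I. H2-K1, a class I heavy chain, had 26.5, 27.9 and 30.6 CPM in GFP+ cells, against 76.1, 74 and 84.4 CPM in GFP- cells (log2 fold change -1.48 ± 0.18, adjusted p = 2.24e-05). Ifitm3, a restriction factor that blocks virus entry, had 205, 204 and 199.9 CPM in GFP+ cells, against 397, 407 and 434 CPM in GFP- cells (log2 fold change -1.02 ± 0.10, adjusted p = 7.98e-07). The gates did not overlap in these 4 genes. The members without a call were Stat2 (log2 fold change 0.15), Ddx58 (-0.13) and Xaf1 (0.08).

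Their promoters were searched on both strands for GAAA, any 2 bases and GAAA, the core of the interferon-stimulated response element (ISRE) that binds IRF and STAT complexes. Of 25 members with a promoter 11 held it (44%), against 3.49% of all 27025 promoters, 2.94% of those of tested genes, 3.35% of those of genes called lower and 7.14% of the germline list. None of the 25 held CACGTG. A match is a description of letters and not of binding. The list was chosen for induction by interferon, so its share of this motif is no result about the gates. Isg15, a ubiquitin-like protein, had 2.5, 4.02 and 4.27 CPM in GFP+ cells, against 10.1, 16.7 and 14.9 CPM in GFP- cells (log2 fold change -1.95 ± 0.25, adjusted p = 1.27e-05). Ifih1, the RNA sensor MDA5, had 3.06, 5.31 and 3.46 CPM in GFP+ cells, against 14.8, 14.9 and 12.6 CPM in GFP- cells (log2 fold change -1.96 ± 0.35, adjusted p = 0.000338). Oas1a, an RNA-activated synthetase, had 3.15, 2.3 and 3.24 CPM in GFP+ cells, against 8.49, 9.39 and 11.6 CPM in GFP- cells (log2 fold change -1.74 ± 0.23, adjusted p = 3.84e-06). Of the 11 holders 9 were lower, Bst2 by the least (-0.28), and Stat2 (0.15, adjusted p = 0.394) and Ddx58 (-0.13, adjusted p = 0.0831) had no call. The promoters of Isg15, Ifih1 and Oas1a are shown as examples of holders that fell; capitals mark it, overlapping copies run together, and the sequences (RefSeq, GRCm38.p6) read in the direction of the gene.
Ifih1, chr2:62646206-62646505, minus strand: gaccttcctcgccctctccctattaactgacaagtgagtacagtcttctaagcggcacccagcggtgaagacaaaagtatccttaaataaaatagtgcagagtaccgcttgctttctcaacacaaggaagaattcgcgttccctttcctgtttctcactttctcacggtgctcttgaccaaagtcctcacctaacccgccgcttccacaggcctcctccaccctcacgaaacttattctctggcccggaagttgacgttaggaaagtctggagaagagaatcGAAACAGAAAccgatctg
Isg15, chr4:156200769-156201068, minus strand: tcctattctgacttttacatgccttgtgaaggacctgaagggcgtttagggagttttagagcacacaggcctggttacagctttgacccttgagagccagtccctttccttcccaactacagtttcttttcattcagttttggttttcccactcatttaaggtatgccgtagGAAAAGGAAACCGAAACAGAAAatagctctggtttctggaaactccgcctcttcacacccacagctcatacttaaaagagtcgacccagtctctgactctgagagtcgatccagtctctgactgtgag
Oas1a, chr5:120907476-120907775, minus strand: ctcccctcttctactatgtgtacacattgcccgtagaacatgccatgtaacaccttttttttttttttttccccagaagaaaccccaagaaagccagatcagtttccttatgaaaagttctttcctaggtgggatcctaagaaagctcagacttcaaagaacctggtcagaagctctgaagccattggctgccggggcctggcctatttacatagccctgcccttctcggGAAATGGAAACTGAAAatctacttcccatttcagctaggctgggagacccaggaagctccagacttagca

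Epithelial genes were mostly higher. Of 28 tested members 19 rose and 3 fell (median 0.77). Cdh1, E-cadherin, had 507, 488 and 528 CPM in GFP+ cells, against 378, 320.1 and 306 CPM in GFP- cells (log2 fold change 0.60 ± 0.12, adjusted p = 0.00111). The gates were separate for Cdh1, and further apart for other junction genes. Dsg2, a desmosomal cadherin, had 170.3, 158 and 150.4 CPM in GFP+ cells, against 20.3, 14.9 and 13 CPM in GFP- cells (log2 fold change 3.30 ± 0.18, adjusted p = 2.72e-08). Tjp3, a tight-junction protein, had 94.8, 83.3 and 89.4 CPM in GFP+ cells, against 19, 15.7 and 12.9 CPM in GFP- cells (log2 fold change 2.48 ± 0.15, adjusted p = 1.26e-09). The 3 that fell were Krt8 (-0.94), Krt19 (-2.41) and Dsp, desmoplakin, with 139, 94.9 and 98 CPM in GFP+ cells, against 241, 203 and 229 CPM in GFP- cells (log2 fold change -1.03).

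Cell division genes were higher in GFP+ cells by small amounts: 25 of 27 members rose and 2 fell, with a median of 0.62. Mcm3, a subunit of the replicative helicase, had 376, 372 and 388 CPM in GFP+ cells, against 172, 188 and 169.6 CPM in GFP- cells (log2 fold change 1.10 ± 0.07, adjusted p = 4.24e-10). Bub1, a spindle checkpoint kinase, had 221, 222 and 205 CPM in GFP+ cells, against 112, 111 and 98.6 CPM in GFP- cells (log2 fold change 1.01 ± 0.07, adjusted p = 1.13e-09). The 2 that fell were Rrm1, with 256, 247 and 248 CPM in GFP+ cells, against 292, 307 and 278 CPM in GFP- cells (log2 fold change -0.22), and Mki67, with 734, 644 and 633 CPM in GFP+ cells, against 798, 821 and 742 CPM in GFP- cells (log2 fold change -0.23). The differences of these 2 genes were small beside those of the cell cycle inhibitors, which fell. Cdkn1a (p21) had 115, 120.1 and 124 CPM in GFP+ cells, against 235, 246 and 289.5 CPM in GFP- cells (log2 fold change -1.10 ± 0.10, adjusted p = 1.32e-07). Cdkn2a had 46.2, 38.1 and 41.4 CPM in GFP+ cells, against 97.5, 82 and 81.6 CPM in GFP- cells (log2 fold change -1.05 ± 0.07, adjusted p = 4.13e-10). Cdkn2b had 7.41, 6.75 and 8.76 CPM in GFP+ cells, against 33, 28.4 and 44.8 CPM in GFP- cells (log2 fold change -2.20). The gates were separate for all 3 inhibitors. They belong to a p53 and senescence list in which 17 of 23 tested members were lower and 3 higher (median -0.55). Trp53 itself was one of the 3, with 331, 333 and 335 CPM in GFP+ cells, against 208, 198 and 189.9 CPM in GFP- cells (log2 fold change 0.75 ± 0.05, adjusted p = 1.52e-09). Immediate-early and stress genes fell in 19 of 27 cases and rose in 7 (median -1.06). Fos had 22.8, 27.3 and 43.9 CPM in GFP+ cells, against 114, 94.8 and 144 CPM in GFP- cells (log2 fold change -1.94). Fosl2 had 10.4, 10.9 and 13.7 CPM in GFP+ cells, against 58.6, 54.8 and 61.4 CPM in GFP- cells (log2 fold change -2.34), while the chaperone gene Hsp90aa1 had 3057, 2730 and 2759 CPM in GFP+ cells, against 1234, 1036 and 1019 CPM in GFP- cells (log2 fold change 1.38 ± 0.06, adjusted p = 6.63e-12).

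In energy metabolism 16 of 28 tested genes of oxidative phosphorylation were higher and none lower, with a median of 0.23, and 14 of 23 glycolytic genes were higher and 5 lower (median 0.36). Cox5a, a cytochrome oxidase subunit, had 206, 218 and 213 CPM in GFP+ cells, against 92.7, 101 and 95.2 CPM in GFP- cells (log2 fold change 1.14 ± 0.07, adjusted p = 4.01e-10). Uqcrc1, a complex III subunit, had 288, 309 and 317 CPM in GFP+ cells, against 174, 196 and 176 CPM in GFP- cells (log2 fold change 0.74). Both differences were moderate and larger than the spread between lines. Pfkp, the platelet isoform of phosphofructokinase, had 308, 375 and 508 CPM in GFP+ cells, against 82.1, 83 and 106 CPM in GFP- cells (log2 fold change 2.13 ± 0.13, adjusted p = 2.9e-08). Slc2a3, the glucose transporter GLUT3, had 1274, 1236 and 1376 CPM in GFP+ cells, against 418, 364 and 404 CPM in GFP- cells (log2 fold change 1.71 ± 0.15, adjusted p = 2.95e-06). Ldhb had 235, 196 and 238 CPM in GFP+ cells, against 64.6, 65 and 63.8 CPM in GFP- cells (log2 fold change 1.79 ± 0.07, adjusted p = 1.57e-12), whereas Ldha, which favours lactate production, had 395, 517 and 613 CPM in GFP+ cells, against 473, 632 and 671 CPM in GFP- cells with no call (adjusted p = 0.128). Of the 13 mitochondrially encoded genes, 8 were tested and mt-Nd1 alone was called, higher (log2 fold change 0.46); its adjusted p was 0.388 with all 21 libraries of the second batch and no term for the line.

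Polycomb proteins place and read repressive histone marks. Of their 31 tested genes 17 rose and 7 fell (median 0.42). The PRC2 core rose together: Ezh2 had 214, 213 and 206 CPM in GFP+ cells, against 93.9, 102 and 95.5 CPM in GFP- cells (log2 fold change 1.12). Suz12 had 493, 489 and 452 CPM in GFP+ cells, against 243, 238 and 224 CPM in GFP- cells (log2 fold change 1.03). Eed had 274, 283 and 254 CPM in GFP+ cells, against 119, 112 and 92.7 CPM in GFP- cells (log2 fold change 1.33). Each core subunit was about as different between the gates as the next, and no GFP- library reached a GFP+ level. Mtf2, an accessory subunit that recruits PRC2 to CpG islands, had 467, 426 and 387 CPM in GFP+ cells, against 114, 105 and 93.2 CPM in GFP- cells (log2 fold change 2.04 ± 0.06, adjusted p = 6.9e-14). Cbx7, a reader of the PRC2 mark that is prominent in ES cells, had 214, 198 and 201 CPM in GFP+ cells, against 71.1, 58.2 and 55.1 CPM in GFP- cells (log2 fold change 1.74 ± 0.08, adjusted p = 1.16e-11). In each of these genes the gates were separate.

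Imprinted genes, expressed from a single parental allele, were lower in 23 of 34 tested cases and higher in 7 (median -1.08). H19, a fetal noncoding RNA, had 394, 351 and 359 CPM in GFP+ cells, against 1681, 1819 and 2019 CPM in GFP- cells (log2 fold change -2.29 ± 0.32, adjusted p = 0.000194), and its neighbour Igf2 had 125, 119.9 and 122 CPM in GFP+ cells, against 464, 459 and 563 CPM in GFP- cells (log2 fold change -2.0 ± 0.34, adjusted p = 0.000707). Both remained far from absent in GFP+ cells. Grb10, a growth inhibitor, had 558, 588 and 553 CPM in GFP+ cells, against 1418, 1379 and 1287 CPM in GFP- cells (log2 fold change -1.26 ± 0.05, adjusted p = 1.57e-12). At the Dlk1-Dio3 domain on chromosome 12, whose silencing is known from defective iPSC clones, the maternal RNA Meg3 had 244, 209 and 189 CPM in GFP+ cells, against 586, 543 and 412 CPM in GFP- cells (log2 fold change -1.25 ± 0.08, adjusted p = 1.17e-09). Rian had 165, 135 and 126 CPM in GFP+ cells, against 353, 318 and 271 CPM in GFP- cells (log2 fold change -1.14 ± 0.08, adjusted p = 3.82e-09). Meg3 and Rian remained well above detection in all 3 GFP+ libraries. Wild-type iPSC clones averaged 236 ± 48 CPM of Meg3 (SD, n = 3), given with no test. Rtl1 of the same domain had the largest fall of the list (log2 fold change -5.01 ± 0.30, adjusted p = 2.03e-10). It had 0.185, 0.144 and 0.368 CPM in GFP+ cells, against 5, 13 and 8.94 CPM in GFP- cells. Dlk1, a paternally expressed inhibitor of differentiation, had 2.5, 4.74 and 1.77 CPM in GFP+ cells, against 26.5, 37.5 and 27.5 CPM in GFP- cells (log2 fold change -3.43 ± 0.34, adjusted p = 7.9e-06). Phlda2, a growth restrainer of the placenta, was among those that rose, with 27.5, 23.6 and 24.3 CPM in GFP+ cells, against 2.86, 2.53 and 2.37 CPM in GFP- cells (log2 fold change 3.29 ± 0.17, adjusted p = 3.95e-11).

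Signalling components were mixed. In the FGF, NODAL and LIF list 10 of 22 tested members were higher and 11 lower (median -0.15): the ligands and co-receptor Fgf4, Nodal and Tdgf1 were higher (2.19, 0.89 and 3.03), whereas Fgfr1, with 206, 220.5 and 218 CPM in GFP+ cells, against 459, 516 and 553 CPM in GFP- cells (log2 fold change -1.24 ± 0.05, adjusted p = 3.99e-12), the ERK phosphatase gene Dusp6 (-1.43) and the LIF co-receptor Il6st (-1.24) were lower. Fgf2, another ligand, fell (log2 fold change -1.81). Among WNT genes 8 of 20 were higher and 10 lower (median -0.62). The feedback genes Axin2 and Notum rose, with Axin2 at 2.41, 3.3 and 3.39 CPM in GFP+ and 0.679, 1.08 and 1.29 CPM in GFP- cells (log2 fold change 1.62) and Notum at 2.04, 4.74 and 5.82 CPM in GFP+ and 0.388, 0.12 and 0.215 CPM in GFP- cells (log2 fold change 3.68), while the receptor Fzd2, with 14.2, 13.9 and 14.7 CPM in GFP+ cells, against 46, 61.5 and 59.8 CPM in GFP- cells (log2 fold change -1.95 ± 0.16, adjusted p = 1.34e-07), and the ligands Wnt5a (-1.56) and Wnt5b (-1.73) fell. Nkd2, another feedback gene, fell (log2 fold change -1.57), and the ligand Wnt7b rose (log2 fold change 1.97).

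The lists for lineages other than fibroblasts, fixed to show which other cells the gates could hold, rarely ran one way. Endoderm genes were lower in 7 of 10 tested cases and higher in 3 (median -1.56). Col4a1, a basement membrane collagen gene, was among the lower ones, with 337, 299 and 290.4 CPM in GFP+ cells, against 1578, 1559 and 1697 CPM in GFP- cells; Sox17 had 3 counts in all 6 libraries, and Gata4 had 43 counts in GFP+ and 2 in GFP- libraries. Of 18 trophectoderm genes 5 rose and 10 fell (median -0.67), with Tfap2c at 201, 155 and 138 CPM in GFP+ and 67.7, 58.3 and 47.3 CPM in GFP- cells (log2 fold change 1.5) and Tfap2a at 9.17, 8.04 and 9.57 CPM in GFP+ and 41.4, 44.2 and 43.6 CPM in GFP- cells (log2 fold change -2.25); Cdx2 had 15 counts in all 6 libraries. Neural genes were higher in 5 of 11 and lower in 6 (median -0.80), and Sox1 was listed at 0. Endothelial genes were lower in 7 of 10 and higher in 3 (median -1.76), the 3 being Pecam1, Vwf (4.48) and Eng (0.24). Of the 2-cell-like list, 1 of 14 matched genes was tested and 11 were listed at 0 in all 6 libraries; many of these have near-identical copies, between which reads may not have been counted.

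Most leukocyte genes were not called at day 12: of 16 tested, 4 were higher, 2 lower and 10 without a call (median 0.62). Tyrobp, an adaptor of myeloid receptors, had 1.2, 2.15 and 1.47 CPM in GFP+ cells, against 0.582, 0.963 and 0.431 CPM in GFP- cells (log2 fold change 1.27 ± 0.37, adjusted p = 0.00549). Csf1r, the macrophage growth factor receptor, had 1.11, 4.6 and 2.58 CPM in GFP+ cells, against 1.12, 2.17 and 1.4 CPM in GFP- cells (adjusted p = 0.0825). Laptm5, which made up most of the summed level, had 111, 150.1 and 144 CPM in GFP+ cells, against 235, 233 and 212 CPM in GFP- cells (log2 fold change -0.74). The whole list summed to 166.4 to 253 CPM in GFP+ and 260.1 to 292 CPM in GFP- libraries. Calls in this list were unstable: 2 to 7 members were higher over the alternatives, and Itgam and Cd14, which were called at adjusted p = 0.0496 and 0.0282, lost the call in several of them.

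The day 12 difference was then set against the day 10 difference in the same 3 lines, with a test of the change itself. At day 10, 5140 genes were called (35.4%), 2524 higher (17.4%) and 2616 lower (18%) in GFP+ cells, against 72.3% at day 12. The log2 fold change at day 12 minus that at day 10 was called for 6507 genes (44.8%), 3188 positive (22%) and 3319 negative (22.9%). The largest classes were 2015 genes lower in GFP+ cells at day 12 and not called at day 10, and 1918 higher at day 12 and not called at day 10, each with a called change. Another 157 genes were lower in GFP+ cells at day 12 and higher at day 10, and 109 the reverse.

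Pluripotency genes already separated the gates at day 10: 21 of 22 shared members were higher there, with a median of 2.57 beside 3.01 at day 12, and the change was called for 8 of 22, all positive. Dppa5a had 195, 175 and 236 CPM in GFP+ cells, against 2.21, 2.49 and 3.76 CPM in GFP- cells at day 10, and its change was -0.27 ± 0.29 (adjusted p = 0.488). Nanog had 386, 374 and 437 CPM in GFP+ cells, against 125, 123 and 99.2 CPM in GFP- cells at day 10, with a called change of 0.78 ± 0.23 (adjusted p = 0.0187). Dppa4, Tcl1 and Foxd3, like Dppa5a, had no called change (-0.45, -0.29 and -0.46). Germline genes had a day 10 median of 2.28 with 18 of 24 higher, and the change was positive for 7 and negative for Brdt, Rhox6 and Rhox9. Hormad2 was one of the 7, with a change of 2.03 ± 0.34 (adjusted p = 0.000221). As at day 12, the germline counts and median describe the members that passed the count filter and not the list. Of the DNA methylation genes, Dnmt3l had a negative change (-1.37, adjusted p = 0.0158), with a GFP- mean of 0.235 CPM at day 10 and 1.89 CPM at day 12. Dnmt3b (0.87, adjusted p = 0.0123) and Tet1 (0.65, adjusted p = 0.00408) had positive ones.

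Most fibroblast genes separated the gates at day 12 and were not called at day 10. At day 10, Vim (-0.68), Meox2 (-1.04) and Foxd1 (-1.70) of the 38 were lower in GFP+ cells and Fn1 (0.45) was higher, with a median of 0.44, and the change was negative and called for 37 of 38 (median -2.29). Col1a1 had 1076, 2811 and 1853 CPM in GFP+ cells, against 624, 1247 and 1838 CPM in GFP- cells at day 10 (log2 fold change 0.65, adjusted p = 0.0912), and its change was -2.87 ± 0.38 (adjusted p = 0.000452). The day 10 gates overlapped for this gene, and the day 12 gates did not. Group means show where the change lay: Col1a1 averaged 4913 CPM in GFP- cells at day 8, 1914 CPM in GFP+ and 1236 CPM in GFP- cells at day 10, and 548 CPM in GFP+ and 2575 CPM in GFP- cells at day 12. Between days 10 and 12 the GFP+ mean was thus lower and the GFP- mean higher. Thy1 had 57.5, 114 and 113 CPM in GFP+ cells, against 66.1, 99.8 and 174 CPM in GFP- cells at day 10, with a change of -2.10 ± 0.32 (adjusted p = 0.000823), and Vim had a change of -1.91 ± 0.29 (adjusted p = 0.000915). At day 10 the TGF-beta list had 4 of 23 members higher and 7 lower (median 0.13), beside 17.4% higher and 18% lower over all tested genes. Its change was negative and called for 18 and positive for none (median -1.59). Hox genes were lower in GFP+ cells on both days, 11 of 21 at day 10 (median -0.84), and the change was negative for 13.

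**Figure D4:**
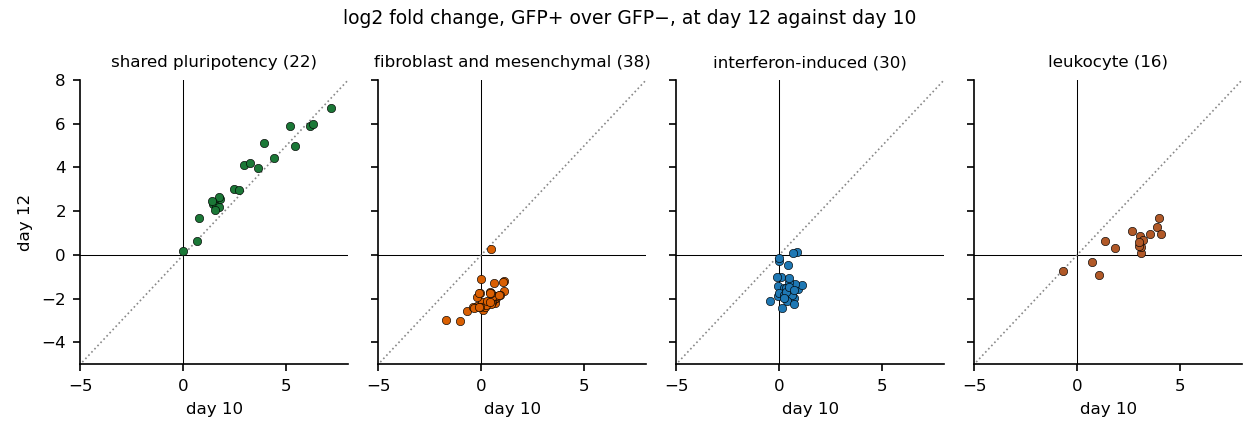
Log2 fold change of GFP+ over GFP- at day 12 (y axis) against day 10 (x axis) for the tested members of 4 gene lists, with a dotted line of equality. Pluripotency genes are above 0 at day 12 and, apart from L1td1, at day 10. Fibroblast genes other than Fn1 and interferon-induced genes other than Stat2 and Xaf1 lie below 0 at day 12, with medians of 0.44 and 0.36 at day 10, and leukocyte genes have a median of 3.02 at day 10 and of 0.62 at day 12.

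Interferon-induced genes changed in the same direction between the days. At day 10, 6 of 30 were higher in GFP+ cells and Tap1 was lower (-0.45), with a median of 0.36. Over all tested genes 17.4% were higher and 18% lower at day 10. The change was negative and called for 27 (median -1.88), beside 22.9% over all tested genes. Psmb8 had 3.13, 8.04 and 4.53 CPM in GFP+ cells, against 1.7, 3.33 and 4.63 CPM in GFP- cells at day 10 (log2 fold change 0.71, adjusted p = 0.048), opposite in direction to day 12, and its change was -2.94 ± 0.38 (adjusted p = 3.13e-05). Isg15 had 10.3, 24.1 and 20.1 CPM in GFP+ cells, against 5.7, 10.2 and 17.4 CPM in GFP- cells at day 10, with a change of -2.67 ± 0.33 (adjusted p = 6.65e-05).

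Leukocyte genes moved with these. At day 10, 14 of 16 were higher in GFP+ cells and Laptm5 was lower (-0.71), with a median of 3.02, and the change was negative and called for 11 of 16 (median -2.36). Of the 21 members only these 16 were tested, and a gene near 0 in GFP- cells can pass the count filter through higher groups. The counts and medians therefore describe the members that passed and not the list. Tyrobp had 2.76, 5.97 and 3.62 CPM in GFP+ cells, against 0.0851, 0.462 and 0.262 CPM in GFP- cells at day 10 (log2 fold change 3.88, adjusted p = 8.66e-07), and C1qc, a complement gene of macrophages, had 3.13, 14.3 and 11.9 CPM in GFP+ cells, against 0.0851, 1.29 and 0.349 CPM in GFP- cells. Line 73E6 had the lowest of the 3 GFP+ values for both genes. The day 10 GFP+ libraries were also uneven for collagen, with Col1a1 lowest in 73E6 and highest in 73E7. The part of leukocyte RNA or of uneven fibroblast RNA in the day 10 differences, and so in the change between days, was not tested. The summed level of the fibroblast list ran from 8389 to 8791 CPM over the GFP+ libraries at day 12, and from 10040 to 21680 CPM at day 10, and that of the leukocyte list from 166.4 to 253.2 CPM at day 12 and from 254.9 to 393 CPM at day 10.

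Among single genes the largest positive changes, by the naming rule, were in Mcf2, Tex14, Kit, Sept1, Vax2 and Lrrc2. Kit, the stem cell factor receptor, had 128, 127 and 140.3 CPM in GFP+ cells, against 11.8, 14.6 and 12.6 CPM in GFP- cells at day 12 (log2 fold change 3.35 ± 0.12, adjusted p = 6.14e-13) and 45, 45.5 and 54.9 CPM in GFP+ cells, against 26.5, 37.2 and 26.6 CPM in GFP- cells at day 10 (log2 fold change 0.69), a change of 2.66 ± 0.16 (adjusted p = 1.43e-07). Its GFP- mean was 50.1 CPM at day 8, 30.1 CPM at day 10 and 13 CPM at day 12. Tex14, needed for bridges between germ cells, had 22.1, 26.3 and 24.4 CPM in GFP+ cells, against 1.31, 0.723 and 1.19 CPM in GFP- cells at day 12 and a change of 2.68 ± 0.46 (adjusted p = 0.000232). Sept1, a septin gene, had 75.5, 86.2 and 116 CPM in GFP+ cells, against 6.65, 5.66 and 6.25 CPM in GFP- cells and a change of 2.63 ± 0.26. Vax2, an eye homeobox gene, changed direction, with log2 fold changes of 1.53 at day 12 and -1.10 at day 10. Mcf2, a guanine nucleotide exchange factor gene, had a change of 3.21 (adjusted p = 0.0432) that was 1.21 (adjusted p = 0.749) without the day 10 GFP- library of 73E7 and lost its call without any 1 of 7 other libraries. Lrrc2 lost its call without the day 10 GFP- library of 73E7 or of 73E8 (adjusted p = 0.0541 and 0.114).

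The largest negative changes were in Zcchc5, Mmp13, Cd36, C3, Cyp2d22 and Piezo2. Mmp13, a collagenase, had 36.2, 33 and 32.9 CPM in GFP+ cells, against 119, 92.2 and 142 CPM in GFP- cells at day 12 (log2 fold change -1.78 ± 0.28, adjusted p = 0.000322) and 36.1, 72.2 and 84.2 CPM in GFP+ cells, against 11.4, 15.5 and 23.7 CPM in GFP- cells at day 10, a change of -3.70 ± 0.41 (adjusted p = 0.000164). C3, the central complement component, had 12.1, 13.7 and 14.2 CPM in GFP+ cells, against 31.8, 36.6 and 32.8 CPM in GFP- cells at day 12 (log2 fold change -1.35 ± 0.27, adjusted p = 0.00126) and 26.7, 67.9 and 50.1 CPM in GFP+ cells, against 5.78, 19.12 and 16.2 CPM in GFP- cells at day 10, a change of -3.17 ± 0.39 (adjusted p = 0.000173). In both genes the gates were separate on both days and in opposite order. Zcchc5, a retrotransposon-derived gene, had log2 fold changes of -2.90 at day 12 and 0.86 at day 10, Cd36, a fatty acid receptor gene, -1.84 and 1.46, and Cyp2d22, a cytochrome P450 gene, -2.13 and 1.03. Piezo2, a mechanosensitive channel gene, was -1.74 at day 12, which was -0.94 (adjusted p = 0.058) without the GFP- library of 73E6.

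Small and broad changes accompanied these. Cell division genes had 6 higher and 5 lower members of 27 at day 10, near the 17.4% and 18% over all tested genes. The change was positive and called for 24 of the 27 and negative for none (median 0.56), beside 22% positive over all tested genes. Mcm3 had log2 fold changes of 1.10 at day 12 and 0.29 at day 10 (change 0.81 ± 0.10, adjusted p = 1.6e-05). Oxidative phosphorylation genes had a positive called change for 17 of 28 and a negative one for none (median 0.30), and Polycomb genes for 16 of 31 and 3 (median 0.34). The imprinted list had a negative called change for 20 of 34 and a positive one for 3 (median -0.57).

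**Figure D5:**
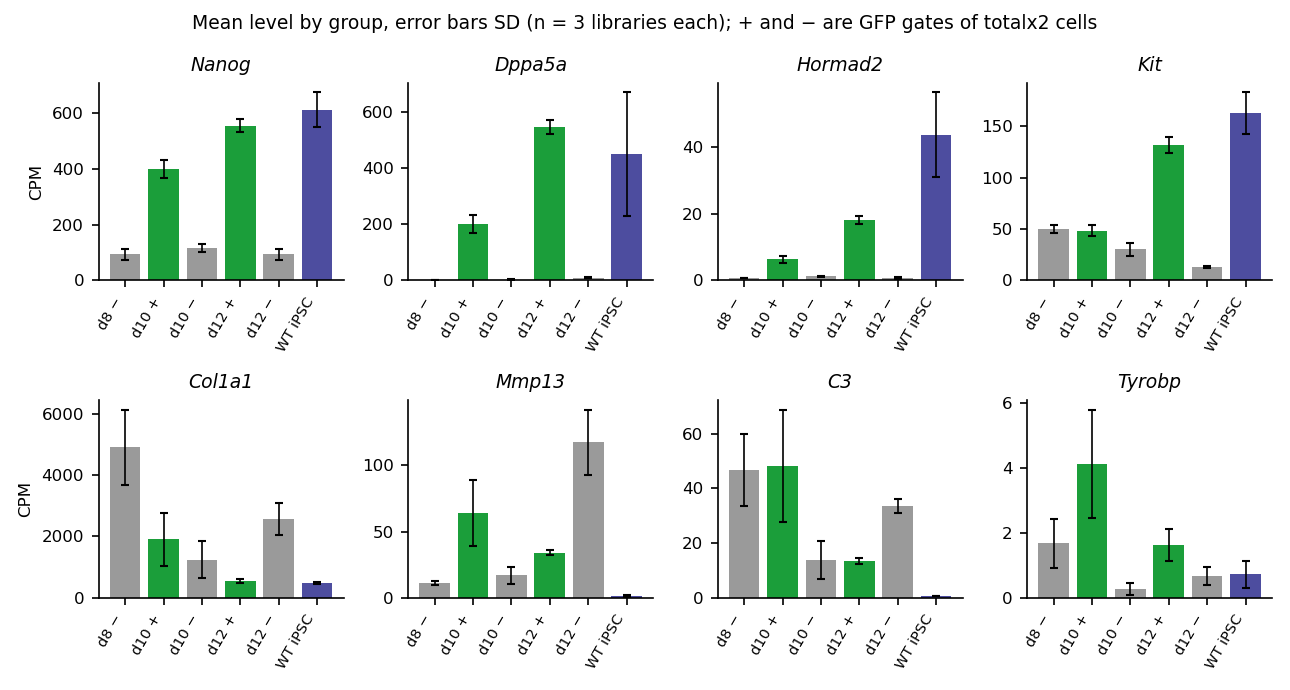
Mean CPM of 8 genes in the totalx2 groups by day (+ and - are the GFP gates, GFP+ left of GFP- on each day) and in wild-type iPSC clones, with bars from 0 and error bars of 1 SD over 3 libraries, iPSC clone 1 included. Nanog, Dppa5a and Hormad2 separate the gates on both days, Kit chiefly at day 12 (log2 fold changes of 3.35 at day 12 and 0.69 at day 10), Col1a1, Mmp13 and C3 are lower in GFP+ than GFP- cells at day 12 only, and Tyrobp is highest in GFP+ cells at day 10.

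The same gates of the naivex2 lines at day 12 gave a smaller contrast. In a joint fit of 16418 genes the GFP+ and GFP- cells of naivex2 differed in 3274 genes (19.9%), 1816 higher (11.1%) and 1458 lower (8.88%). The totalx2 log2 fold change minus the naivex2 one was called for 7265 genes (44.3%), 3468 positive (21.1%) and 3797 negative (23.1%). The systems were sequenced in separate batches and differ in reporter alleles and in the stage given for each gate, and these cannot be told apart; each difference compares changes within a batch. Pluripotency genes had a naivex2 median of 0.29 with 11 of 22 higher, and the difference between systems was positive for 21. Nanog in naivex2 averaged 491 ± 38.7 CPM in GFP+ and 460.1 ± 2.22 CPM in GFP- cells (SD, n = 3 each), beside 555 ± 22.2 CPM in GFP+ and 93.2 ± 19.7 CPM in GFP- cells of totalx2. Dppa3 averaged 49.4 CPM in GFP+ and 1.72 CPM in GFP- cells of totalx2, beside 38.8 CPM in GFP+ and 53.5 CPM in GFP- cells of naivex2 (difference 5.28 ± 0.28, adjusted p = 4.7e-14), and Foxd3 averaged 39.8 CPM in GFP+ and 0.334 CPM in GFP- cells of totalx2, beside 42.3 CPM in GFP+ and 16 CPM in GFP- cells of naivex2 (difference 5.26 ± 0.44, adjusted p = 3.89e-10).

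Of the germline members tested in the joint fit, 20 of 29 were higher in GFP+ cells of naivex2 and Rhox6 and Rhox9 were lower (median 2.39). The difference between systems was positive for 15 and negative for 1. A member near 0 in GFP- cells can pass the count filter through groups where it is higher. These counts and the median therefore describe the members that passed and not the list. Dazl had a naivex2 log2 fold change of 3.68 (adjusted p = 8.71e-08) and Rpl10l of 5.04 (adjusted p = 5.65e-09). Fibroblast genes differed little between the naivex2 gates, with Col6a3 (-0.85) and Pdgfrb (-0.91) of the 38 lower, Zeb1 higher (0.38) and a median of -0.39, and the difference between systems was negative for 30. Of 30 interferon-induced genes Xaf1 was higher (1.11) and H2-K1 lower (-0.60) in naivex2 (median -0.22), with 18 differences negative, and Hox genes 4 lower of 23 (median -0.61), with 13 differences negative. Epithelial genes ran the other way in naivex2, with 12 of 28 lower and Grhl2 and Elf3 higher (median -0.44), and the difference was positive for 20.

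By the naming rule the largest positive differences were in Ina, H2-Bl, Dppa3, Foxd3, Zfp534 and Lrrc34, and the largest negative ones in Tgm3, Unc5d, Ntrk2, Prkcb, Dlk1 and Dnah2. Ina, a neuronal intermediate filament gene, averaged 16.4 CPM in GFP+ and 0.554 CPM in GFP- cells of totalx2, beside 2.82 CPM in GFP+ and 4.89 CPM in GFP- cells of naivex2 (difference 5.62 ± 0.37, adjusted p = 1.56e-12). Lrrc34, a leucine-rich repeat gene, averaged 55.9 CPM in GFP+ and 1.04 CPM in GFP- cells of totalx2, beside 80.6 CPM in GFP+ and 49.9 CPM in GFP- cells of naivex2 (difference 4.87 ± 0.23, adjusted p = 6.55e-15). Dlk1 averaged 3.0 CPM in GFP+ and 30.5 CPM in GFP- cells of totalx2, beside 19.9 CPM in GFP+ and 18.3 CPM in GFP- cells of naivex2 (difference -3.57 ± 0.42, adjusted p = 5.1e-07), and Unc5d, a netrin receptor gene, averaged 1.61 CPM in GFP+ and 16.8 CPM in GFP- cells of totalx2, beside 2.22 CPM in GFP+ and 1.54 CPM in GFP- cells of naivex2 (difference -3.94 ± 0.34, adjusted p = 3.01e-10). Both naivex2 gates sat near the level of totalx2 GFP+ cells for Unc5d and between the totalx2 gates for Dlk1. The systems were sequenced in separate batches, so these levels carry any batch difference and were not tested against each other. Ntrk2 averaged 3.31 CPM in GFP+ and 33.1 CPM in GFP- cells of totalx2, beside 0.993 CPM in GFP+ and 0.808 CPM in GFP- cells of naivex2.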

How the data were processed

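The authors deposited, for each sequencing batch, a table of raw read counts per gene. Per the file headers, the counts were made with featureCounts 1.5.3 over whole genes (introns included) and summed by gene name, and per the submitters' processing notes reads were aligned with HISAT2 2.1.0 to mm10. No option for reads in more than 1 gene is given in the headers, so a read in overlapping genes of 1 strand was not counted; 27 of the 189 named genes have such an overlap, and a 0 is not read as absence. Every column was mapped to a sample by its name, and 0 columns had no sample.

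The day 12 comparison was fitted on the 15 totalx2 libraries of the second batch (6540256 to 20225778 counts), which share 1 estimate of the spread, with edgeR 4.0.16 (quasi-likelihood, robust; TMM factors; filterByExpr; R 4.3.3, limma 3.58.1), group terms and a term for the line. Genes passing an adjusted p of 0.05 (Benjamini-Hochberg) are called. The comparison with naivex2 used 36 libraries with line within system. Line numbers come from the titles. All 30 same-line pairs of totalx2 libraries had deviations from their group means correlated above 0.1 (0.129 to 0.721), so the lines pair these libraries. The pairing was less even in naivex2, where 38 of 63 same-line pairs were above 0.1 (-0.187 to 0.516). Its day 12 GFP+ and GFP- pairs had correlations of 0.346, 0.347 and 0.437. Replicates are independent lines per the labels, and intervals cover counting error only. The steps were tested on simulated data.

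Genes are named by a rule: the 12 largest called rises and falls with at least 10 CPM in the higher gate and no overlap, the up to 4 list members of smallest p and up to 2 against the list's direction, the 6 largest differences each way between days and systems, and a short fixed set. Some further list members are named to describe their list, and these were chosen after their values were seen. Some genes stand in more than 1 list. The gene lists and the comparison itself were chosen with earlier results of these data known. Alternatives were DESeq2 1.42.0 with its own size factors, library totals alone, no filter on low counts, no term for the line, other sets of libraries, and leaving out each library in turn. Promoter and microRNA sequences come from RefSeq tables on GRCm38.p6.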

Additional observations from a re-analysis of the deposited data

Results flagged for a closer look

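Each result below stands out because the difference between GFP+ and GFP- cells was not the same on 2 days or in 2 systems, by the test of that difference (edgeR's quasi-likelihood test). Between day 12 and day 10 of totalx2 this held for 6507 genes. The log2 fold change at day 12 minus that at day 10 was 3.21 for Mcf2, 2.68 for Tex14, 2.66 for Kit, 2.63 for Sept1, 2.62 for Vax2 and 2.35 for Lrrc2. It was -3.76 for Zcchc5, -3.70 for Mmp13, -3.30 for Cd36, -3.17 for C3, -3.15 for Cyp2d22 and -3.11 for Piezo2.

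Between totalx2 and naivex2 at day 12 the difference held for 7265 genes. The totalx2 log2 fold change minus the naivex2 one was 5.62 for Ina, 5.31 for H2-Bl, 5.28 for Dppa3, 5.26 for Foxd3, 5.21 for Zfp534 and 4.87 for Lrrc34. It was -4.11 for Tgm3, -3.94 for Unc5d, -3.6 for Ntrk2, -3.6 for Prkcb, -3.57 for Dlk1 and -3.52 for Dnah2. The system is also the sequencing batch, and these cannot be told apart.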

How the results depend on the processing

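The counts of called genes stayed within 1.5 times their reported value under every alternative run. The day 12 count of 10498 ran from 9357 (all 21 libraries of the second batch, no term for the line) to 10921 (no filter on low counts), with 9933 by DESeq2 and 9573 to 10195 when 1 library was left out. Without the pairing by line it was 9988, the change between days was called for 5585 genes and the difference between systems for 6825. Leaving out 1 library gave 5406 to 6795 genes for the change between days and 6397 to 7100 for the difference between systems. With library totals alone 42.3% of the called changes between days were positive, against 49% as reported. Of 189 named genes 8 lost their day 12 call in some alternative (Itgam, Fn1, Cd14, Gata6, Piezo2, Cd68, Mki67 and mt-Nd1), and none changed direction in any. Of 12 named changes between days, Mcf2 and Lrrc2 lost theirs in some, and the 12 named differences between systems kept theirs in all. Depth limits genes with few counts: Gata4 had 43 counts in GFP+ and 2 in GFP- cells, a ratio of 26.2 with an exact 95% interval of 6.83 to 223.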
